A study of Mus musculus with 2 samples.

Results

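The pancreatic islet genes described here are 10 genes of hormone-secreting islet cells: Ins1, Ins2, Gcg, Sst, Pdx1, Nkx6-1, Neurod1, Pax6, Mafa and Isl1. They were given by name, out of 21911 protein-coding genes of the GENCODE annotation, and all 10 were found in it. Each gene was read over its body and 20 kb on either side, called its domain, and no 2 domains overlapped. The genes were chosen by what was already known of their promoter and distal peaks in these libraries, so the counts and signals of the members are descriptions, and no test was run on them.

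The study mapped chromatin open to the nuclease DNase I (DNase-seq) in the thymus of B6CASTF1/J males at the age of 36 days. This strain is the first-generation cross of C57BL/6J with CAST/EiJ, so every cell carries a genome of each, and both were read against the mm10 reference. There are 2 libraries in 1 group, labelled replicate 1 and replicate 2 (here the library labelled 1 and the library labelled 2), with no treatment and no control. Their sample notes number the males differently, while the donor identifier is the same in both. A library is a whole tissue, so a weaker peak in fewer open cells and in less open cells cannot be told apart. Each library has a shorter list of peaks (85367 in the library labelled 1 and 60644 in the library labelled 2), a longer one (126824 and 88164), a list of footprints (316358 and 270843) and a table of false discovery rates (FDR) per interval, which lists intervals below 0.05. The signal of a peak is the authors' value in deposited units of unstated scaling. No file gives read counts, so the depth is unknown. Over 35217 regions with a peak in both shorter lists, the median ratio of the signals, replicate 1 over replicate 2, was 0.744. With 1 library each, differences between the libraries have no replicate check.

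The libraries differed in the open promoters of T lineage markers and of pancreatic markers. A promoter was called open when a peak lay within 1 kb of any of the gene's transcript starts. In the shorter lists, used here, 63.1% and 60.1% of all protein-coding genes were open in the libraries labelled 1 and 2. Of 12 T lineage markers, 2 were open in the library labelled 1 (Lck and Tcf7) and 12 in the library labelled 2, with summed promoter signals of 8.29 and 81.4. Cd3d, Cd3e, Cd3g, Cd4, Cd8a, Cd8b1, Rag1, Rag2, Bcl11b and Ptcra had no promoter peak in the library labelled 1, so the thymus label goes against 10 of its 12 T cell markers there. Of 14 markers of pancreatic acinar cells, which make digestive enzymes, 14 were open in the library labelled 1 and 5 in the library labelled 2, with sums of 75.5 and 12.9. Of 7 markers of pancreatic ducts the counts were 7 and 1, with sums of 25.8 and 7.07. Of 9 neuron markers the counts were 6 and 6, with sums of 12.6 and 16.4. Of 8 markers of thymic epithelium, the supporting cells of the thymus, they were 4 and 4, with sums of 17.2 and 28.0, and the closed ones in both were Foxn1, Psmb11, Krt5 and Krt14. The part of these cell types in the values of the islet genes was not tested.

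Islets are clusters of endocrine cells in the pancreas. Beta cells secrete insulin, which lowers blood glucose, alpha cells secrete glucagon, which raises it, and delta cells secrete somatostatin, which restrains both. Pdx1 sets up the pancreas in the embryo and later maintains beta cells, Nkx6-1 and Mafa act in beta cells, and Neurod1, Pax6 and Isl1 serve all endocrine cell types and also neurons. In the thymus, medullary epithelial cells make low amounts of many tissue proteins, insulin among them, under the regulator Aire, so that developing T cells are tested against them.

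The DNA behind the peaks is shown first for 6 genes. The first 3 sequences are promoter peaks of the library labelled 1 upstream of a gene's start, cut at the start where a peak runs into the gene. The next 2 are the strongest peaks of that library beyond any promoter around Pdx1 and Sst, and the last is the only such peak around Pax6. All are C57BL/6J reference sequence of mm10, written 5′ to 3′ on the strand of the gene, and capitals mark footprints of the library labelled 1, short stretches with little cutting inside open chromatin.
Nkx6-1 upstream (minus strand), chr5:101665381-101665580: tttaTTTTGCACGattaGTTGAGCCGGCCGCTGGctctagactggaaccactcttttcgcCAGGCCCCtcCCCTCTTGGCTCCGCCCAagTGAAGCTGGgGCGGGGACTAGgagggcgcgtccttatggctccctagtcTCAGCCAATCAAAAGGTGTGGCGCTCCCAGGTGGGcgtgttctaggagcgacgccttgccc
Neurod1 upstream (minus strand), chr2:79456842-79456992: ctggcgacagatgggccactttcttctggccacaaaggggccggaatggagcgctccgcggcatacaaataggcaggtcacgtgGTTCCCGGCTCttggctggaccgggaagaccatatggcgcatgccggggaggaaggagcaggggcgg
Isl1 upstream (minus strand), chr13:116309690-116309880: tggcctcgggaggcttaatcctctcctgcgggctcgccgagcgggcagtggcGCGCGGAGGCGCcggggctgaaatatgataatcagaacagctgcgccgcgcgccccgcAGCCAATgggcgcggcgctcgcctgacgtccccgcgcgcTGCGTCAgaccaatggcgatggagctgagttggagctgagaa
Pdx1 downstream (plus strand), chr5:147294181-147294380: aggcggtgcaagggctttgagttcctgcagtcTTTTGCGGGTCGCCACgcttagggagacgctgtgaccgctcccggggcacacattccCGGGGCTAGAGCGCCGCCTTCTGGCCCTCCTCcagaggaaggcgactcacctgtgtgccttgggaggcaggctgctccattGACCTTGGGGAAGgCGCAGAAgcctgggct
Sst upstream distal (minus strand), chr16:23898961-23899120: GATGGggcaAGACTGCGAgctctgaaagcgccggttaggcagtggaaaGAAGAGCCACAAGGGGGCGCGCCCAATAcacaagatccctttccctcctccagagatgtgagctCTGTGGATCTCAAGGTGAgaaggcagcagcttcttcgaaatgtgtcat
Pax6 intron (plus strand), chr2:105687747-105687812: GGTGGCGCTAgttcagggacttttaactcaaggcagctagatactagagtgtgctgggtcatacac

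Counted over all 10 genes in the shorter lists, promoters were open at 6 in the library labelled 1 and at 2 in the library labelled 2. The shares of all protein-coding genes were 63.1% and 60.1%. Pdx1, Nkx6-1, Neurod1, Isl1 and Ins1 were open in the library labelled 1 only (5 of 10, against 6.41% of all genes). Pax6 was open in the library labelled 2 only (1 of 10, against 3.38%), Mafa in both (1 of 10, against 56.7%), and Ins2, Gcg and Sst in neither (3 of 10, against 33.5%). These states were known when the genes were chosen, so nothing is read from the shares. In the longer lists 6 and 5 were open, against 67.2% and 64.7% of all genes, since these lists add weak promoter peaks of Ins1, Nkx6-1 and Isl1 in the library labelled 2. There 4 members were open in both (61.2% of all genes), Pdx1 and Neurod1 in the library labelled 1 only (6.02%), Pax6 in the library labelled 2 only (3.50%) and 3 in neither (29.3%).

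**Figure D1:**
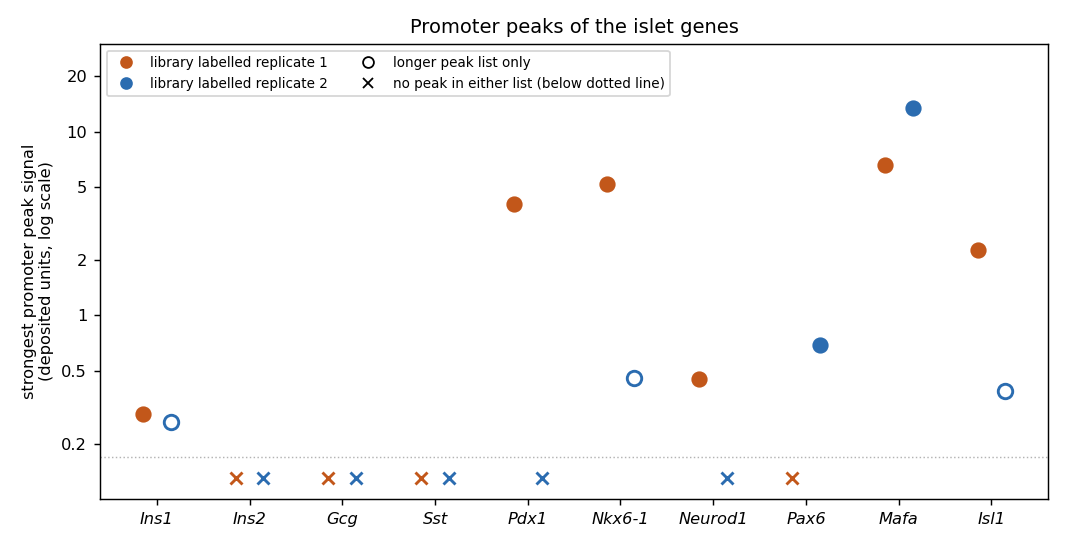
Signal of the strongest promoter peak of each islet gene (log scale, deposited units) in the libraries labelled replicate 1 (orange, left of each pair) and replicate 2 (blue, right). Filled points are in the shorter list, open points in the longer list only, and crosses mark genes with no promoter peak in either list. Nkx6-1 stands at 5.20 against 0.455, and Mafa at 6.57 against 13.5.

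The hormone genes had weak promoter peaks or none. Ins1, the retroposed insulin gene of mice (ENSMUSG00000035804.5, chromosome 19, 52264297 to 52265476), had a promoter peak of 0.290 in the library labelled 1. The library labelled 2 had none in its shorter list and one of 0.262 in its longer list. The peak in the library labelled 1 spanned 52264304 to 52264465 and began inside the first exon, and only 2.55% of that library's peaks were as weak or weaker. The peak in the library labelled 2 lay elsewhere, with its midpoint 445 bp into the gene in a coding exon, at a lowest FDR of 0.00623 against 4.8e-05 in the library labelled 1. Both values are near the bottom of their lists, and neither library had a distal peak around Ins1. Parts of Ins1 and Ins2 are nearly identical, and no source used here says how reads that fit both were placed.

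The 250 bases upstream of the annotated Ins1 start are shown because homeodomain factors such as PDX1 are known to bind upstream of insulin genes. They hold a match to the E box CAGATGG on the other strand, as ccatctg. They need not hold the whole insulin promoter, since another match lay downstream of them, at 52264338 to 52264344. It was inside the annotated first exon and under the peak of the library labelled 1. The sequence is from RefSeq (GRCm38.p6, plus strand), and capitals mark TAAT, the core that these factors recognise, on either strand.
Ins1 promoter, chr19:52264047-52264296: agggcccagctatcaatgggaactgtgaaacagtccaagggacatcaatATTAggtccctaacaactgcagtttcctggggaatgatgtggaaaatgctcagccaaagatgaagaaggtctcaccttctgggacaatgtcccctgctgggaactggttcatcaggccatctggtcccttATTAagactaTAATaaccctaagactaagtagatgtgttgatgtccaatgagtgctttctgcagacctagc
There were 3 matches. Of 32851 RefSeq promoters in the same window, 54.9% held at least 1 and 17.3% at least 3. No peak of the shorter lists reached these bases in either library, and the longer list of the library labelled 1 had a peak over the last of them.

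Ins2, the insulin gene shared by all mammals (ENSMUSG00000000215.11, chromosome 7, 142678656 to 142743381), had no promoter peak in either list of either library, and no interval with a listed FDR lay within 1 kb of any of its 9 annotated transcript starts. Its annotated body is long because some transcripts start far upstream. Distal peaks, those beyond 1 kb from every transcript start of any gene, numbered 6 in the library labelled 1 and 5 in the library labelled 2. The 5 of the library labelled 2 each overlapped a peak of the library labelled 1. The strongest, in an untranslated exon of a long transcript, had signals of 1.07 and 1.23, and the others ranged from 0.541 to 0.823 and from 0.462 to 0.894. The domain also holds Igf2, so these peaks cannot be assigned to insulin by position.

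Gcg, which encodes glucagon (ENSMUSG00000000394.15, chromosome 2, 62474530 to 62483650), had no peak of any kind in its domain in the shorter lists and no footprint in either library. In the longer lists it had 1 distal peak of 0.251 in the library labelled 1, against none in the library labelled 2. No FDR below 0.05 was listed at its 3 transcript starts in either library.

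Sst, which encodes somatostatin (ENSMUSG00000004366.4, chromosome 16, 23889573 to 23890958), had a closed promoter in both libraries, with no listed FDR. Its domain held 2 distal peaks in each, and they were the same sites. The stronger, with its midpoint 8.1 kb upstream of the start, had a signal of 2.71 in the library labelled 1 and 3.44 in the library labelled 2. The other, 7.5 kb upstream, had 1.29 and 2.14. A footprint in the stronger site overlaps the letters AGGGGGC, a short core of the sequence bound by the insulator protein CTCF, in both libraries.

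Pdx1 (ENSMUSG00000029644.7, chromosome 5, 147269959 to 147275848) had 8 peaks in its domain in the library labelled 1 and 2 in the library labelled 2. The library labelled 1 had 3 promoter peaks and the library labelled 2 none, and the strongest, 147269941 to 147270200 over the first exon, had a signal of 4.01 at a lowest FDR of 5.97e-19. The other 2 promoter peaks had 1.41 and 1.54 and continued over the coding sequence into the intron. Further peaks of 1.26, 1.24 and 1.61 followed within the gene, so that 6 of the 8 peaks of the library labelled 1 lay in the gene body. No interval with an FDR below 0.05 was listed at the Pdx1 promoter in the library labelled 2. The noncoding gene Plut starts next to Pdx1 on the other strand. The 3 promoter peaks of Pdx1 also lay within 1 kb of a Plut start, so they cannot be assigned to 1 of the genes. The peak of 1.26 lay within 1 kb of a Plut start only.

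Downstream of Pdx1 both libraries had 2 distal peaks. At the farther site, with its midpoint 24.3 kb from the Pdx1 start, the signal was 5.18 in the library labelled 1 and 0.979 in the library labelled 2, a ratio of 5.30, and 99.1% of the shared regions of the genome had that ratio or a lower one. The nearer pair overlapped by position only in part and had 3.04 and 1.98, a ratio of 1.54 (84.4% at or below). In the longer list the library labelled 1 added peaks 1.5, 2.3 and 11.2 kb upstream of the Pdx1 start, with signals of 0.964, 0.737 and 0.815, whereas the library labelled 2 added none. Conserved control regions of Pdx1 are known upstream of the gene. Whether these 3 weak peaks match them was not tested.

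Nkx6-1 (ENSMUSG00000035187.10, chromosome 5, 101658139 to 101664996) had the strongest promoter peak among the genes open in the library labelled 1 only. The peak, shown above, lay 484 bp upstream of the start by its midpoint, with a signal of 5.20 and a lowest FDR of 4.31e-20. In the library labelled 2 the longer list had a peak of 0.455 at the same place, at an FDR of 0.00476. Of the peaks of the library labelled 1, 91.4% were as weak as this one or weaker, and its 5.20 stood above 4.75, the median over all genes with a promoter peak there. No distal peak lay in the domain in the shorter lists.

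Mafa (ENSMUSG00000047591.5, chromosome 15, 75745490 to 75748228), which activates insulin genes, was the 1 member open in both libraries, and it went the other way from Pdx1 and Nkx6-1. Its upstream peak had identical bounds in both, and its signals were 6.57 in the library labelled 1 and 13.5 in the library labelled 2. The ratio of 0.486 was below the genome-wide median of 0.744, and 21.7% of shared regions had that ratio or a lower one. Both values were above the medians of open genes, which were 4.75 and 7.84. Distal peaks numbered 1 in the library labelled 1 and 4 in the library labelled 2, all downstream. Their shared site, 20.5 and 20.4 kb from the Mafa start by its midpoints, had 3.77 and 5.28. Inside the gene the library labelled 1 had 2 further promoter peaks, of 0.886 and 0.564, and the library labelled 2 had peaks of 0.655 and 0.732 there in its longer list only.

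**Figure D2:**
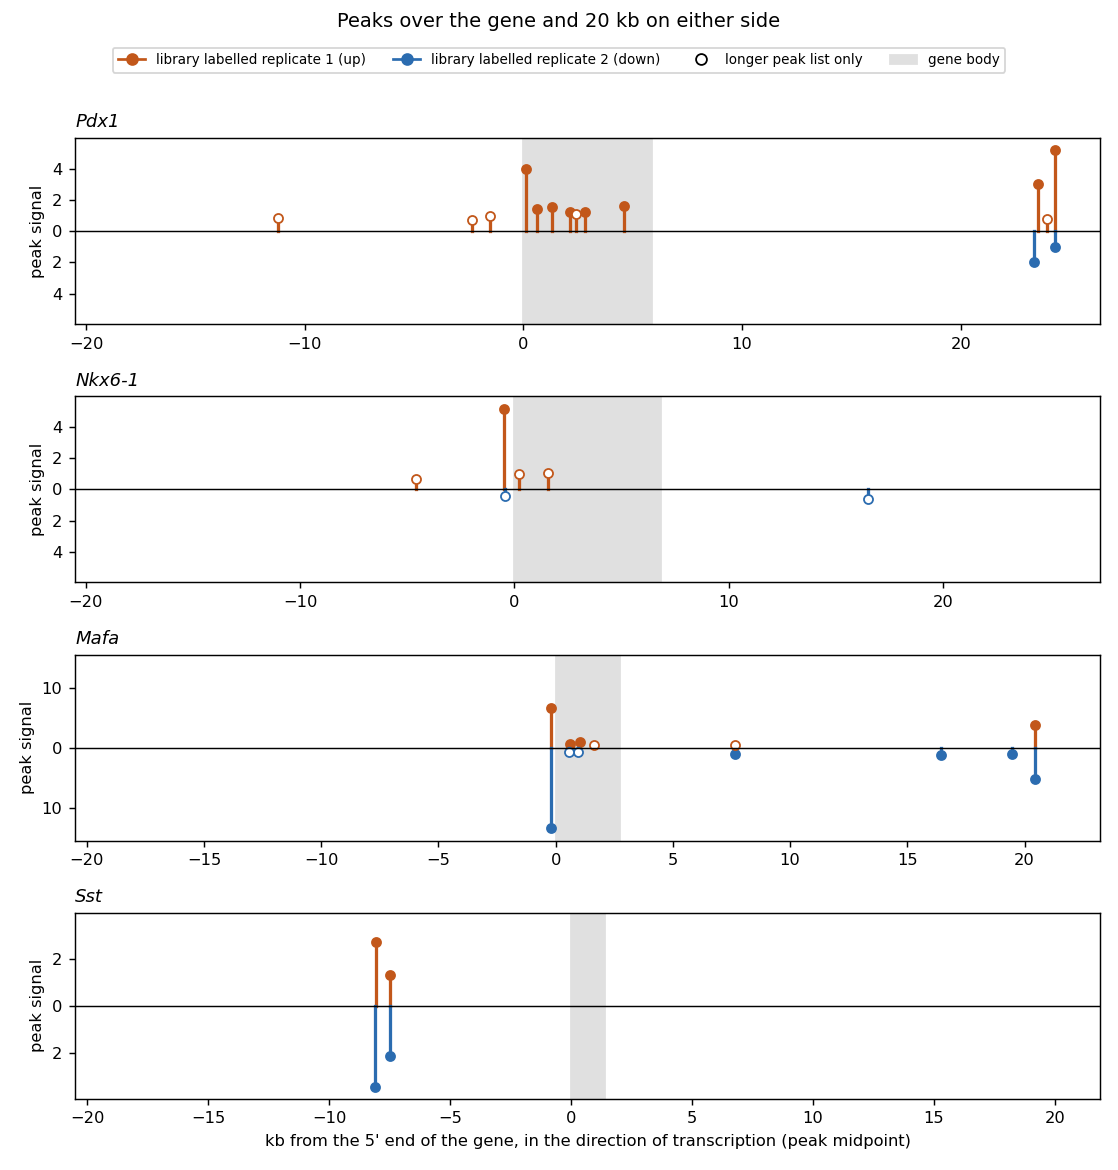
Peaks around Pdx1, Nkx6-1, Mafa and Sst, placed by the distance of their midpoints from the gene's 5' end in kb, with signal in deposited units upward for the library labelled replicate 1 and downward for replicate 2. Open points are in the longer list only and grey marks the gene body. Pdx1 and Nkx6-1 are mostly one-sided, whereas both Sst peaks and most Mafa peaks of replicate 1 have partners, as at the Mafa promoter with 6.57 and 13.5.

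The factors shared by all endocrine cell types gave mixed results. Isl1, a LIM homeodomain factor (ENSMUSG00000042258.13, chromosome 13, 116298281 to 116309689), had a promoter peak of 2.26 across its start in the library labelled 1, at a lowest FDR of 3.31e-06. In the library labelled 2 a peak of 0.385 at an FDR of 0.00861 was in the longer list only. Neither library had a distal peak in its domain.

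Neurod1, a basic helix-loop-helix factor (ENSMUSG00000034701.9, chromosome 2, 79452521 to 79456751), had 2 weak promoter peaks in the library labelled 1, of 0.384 and 0.447, against none in either list of the library labelled 2. At most 10.1% of the peaks of the library labelled 1 were as weak as these or weaker. The promoter window is shared with Cerkl, a neighbouring gene. A site in the coding exon of Neurod1, near a start of the noncoding gene Gm26755, was open in both with 0.917 and 1.00.

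Pax6, a paired-box and homeodomain factor (ENSMUSG00000027168.21, chromosome 2, 105668900 to 105697364), had peaks at different places. The library labelled 1 had no promoter peak at any of its 24 transcript starts and 1 intronic distal peak of 1.76. The library labelled 2 had a promoter peak of 0.693 at a start inside the gene, 6.5 kb from its 5' end, and no distal peak. The longer list of the library labelled 1 added 2 more intronic peaks, of 1.11 and 1.10, next to the first. Pax6 was thus marked in both libraries and shared no peak between them.

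Summed over the 10 domains, the shorter lists held 27 peaks in the library labelled 1 and 16 in the library labelled 2. They comprised 11 and 2 peaks at promoters of the members, 2 and 1 at promoters of other genes, and 14 and 13 distal peaks. At least 1 distal peak was found at 5 genes in the library labelled 1 (Ins2, Sst, Pdx1, Pax6 and Mafa) and at 4 in the library labelled 2, without Pax6, against 70.2% and 61.8% of all genes. The median number per gene was 0.50 and 0, against 2.00 and 1.00 over all genes. Ins2, Pdx1 and Pax6 had more in the library labelled 1 than in the library labelled 2 (3 of 10, against 41.2% of all genes), by 1, 2 and 1. Mafa had fewer, by 3 (1 of 10, against 18.2%). In this difference 24.3% of all genes stood at the value of Pdx1 or above it, and 97.0% at that of Mafa or above. When distal meant beyond 2500 bp of every start, the 10 domains held 11 and 12, so the order of the libraries turned. In the longer lists 28 and 15 distal peaks were found. There 8 genes in the library labelled 1 and 5 in the library labelled 2 had at least 1 (78.8% and 71.4% of all genes), 6 had more in the library labelled 1 (49.2%), and Mafa, with 3 and 4, had fewer (20.5%).

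**Figure D3:**
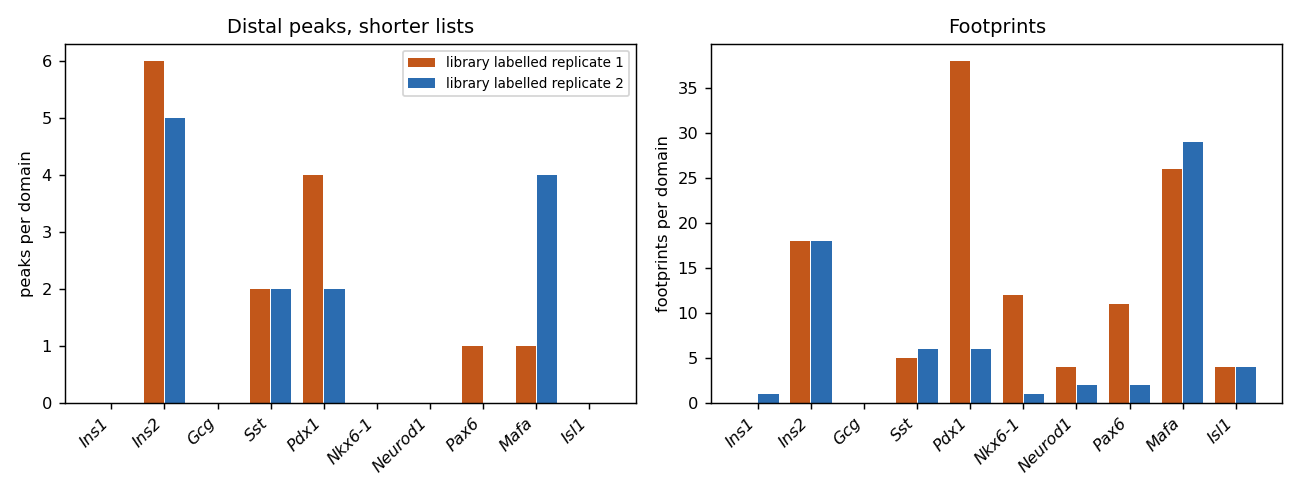
Distal peaks of the shorter lists (left) and footprints (right) per domain of each islet gene, as counts, in the libraries labelled replicate 1 (orange, left bars) and replicate 2 (blue, right bars). Distal counts differ by at most 1 except at Pdx1 (4 and 2) and Mafa (1 and 4), and footprints differ most at Pdx1 (38 and 6).

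Of the 27 peaks of the library labelled 1, 12 (44.4%, 95% Wilson interval 27.6 to 62.7, counting of peaks only) overlapped a peak of the library labelled 2, against 43.1% of all its peaks. Of the 16 of the library labelled 2, 12 (75.0%, 50.5 to 89.8) overlapped one of the library labelled 1, against 60.6%. The 12 shared regions lay at Ins2 (5), Sst (2), Pdx1 (2), Mafa (2) and Neurod1 (1). The farther Pdx1 region had a ratio of 5.30, and the other 11 ranged from 0.486 to 1.54.

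**Figure D4:**
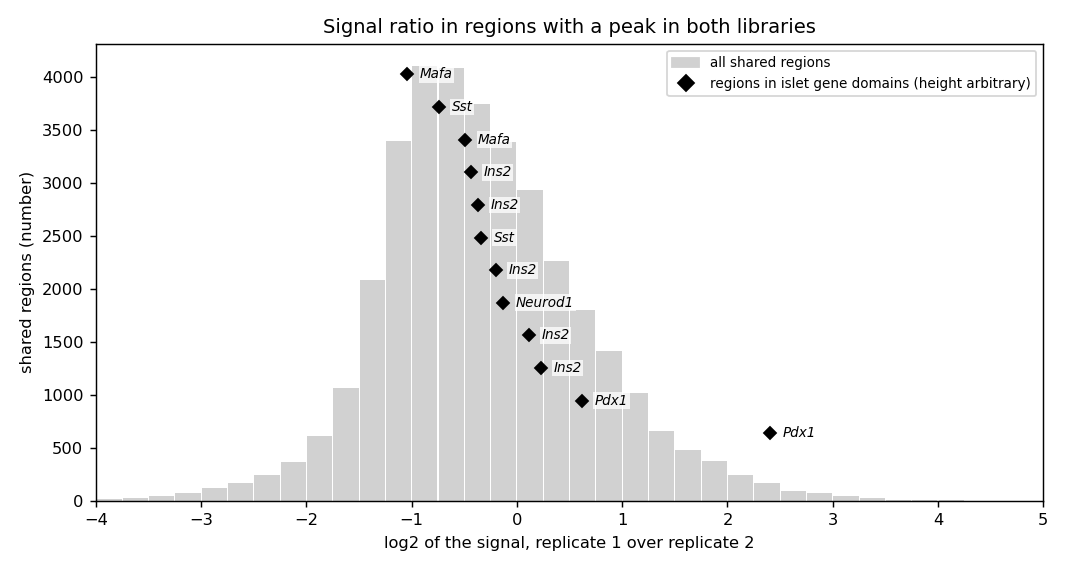
Histogram of the log2 signal ratio, replicate 1 over replicate 2, in the 35217 regions with a peak in both shorter lists (grey), with the 12 regions in islet gene domains as diamonds at arbitrary heights. The Pdx1 region 24.3 kb downstream stands at 2.40 and the Mafa promoter at -1.04.

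Footprints are places where a bound protein can shield DNA from the enzyme. Their deposited score was 0.01 in the lists, so they cannot be ranked. The 10 domains held 118 in the library labelled 1 and 69 in the library labelled 2, with medians per gene of 8.0 and 3.0, against 18.0 and 16.0 over all genes. At least 1 footprint was found at 8 genes in the library labelled 1 and at 9 in the library labelled 2, against 83.3% and 80.9% of all genes. Pdx1 had 38 and 6, Nkx6-1 12 and 1, Pax6 11 and 2, Neurod1 4 and 2, Mafa 26 and 29, Ins2 18 and 18, Sst 5 and 6, and Isl1 4 and 4. Ins1 had 0 and 1, and Gcg 0 and 0. Of the 118 and 69 footprints, 74 and 43 lay whole within a peak of the shorter lists, so these counts are not separate from those of the peaks. The others lay partly or wholly outside these peaks. At Pax6 in the library labelled 1, 1 of the 11 lay whole within one. Pdx1, Nkx6-1, Neurod1 and Pax6 had more in the library labelled 1, whereas Isl1 and Ins1, also open there only in the shorter lists, did not. The share of all genes with more footprints in the library labelled 1 was not counted.

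Footprints of the members were shared to different degrees. Of the 118, 38 (32.2%, 95% Wilson interval 24.4 to 41.1) overlapped a footprint of the library labelled 2, against 35.1% of all. Of the 69, 36 (52.2%, 40.6 to 63.5) overlapped one of the library labelled 1, against 39.4% of all. Footprints of a gene are not independent, and the interval covers counting only. Ins2 accounted for 14 of the 38 and Mafa for another 14. In the Mafa promoter all 8 footprints of the library labelled 1 overlapped one of the library labelled 2. The Nkx6-1 promoter peak held 7 footprints in the library labelled 1, and the library labelled 2 had none there to compare.

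Short consensus sequences of 12 factors or factor groups were sought on both strands in 200 bp centred on each peak of the shorter lists. Such a window runs past a narrow peak and cuts a wide one, and its centre at a shared site can differ between the libraries. TAATTA, a homeodomain box, TGCTGAC, a MAF core, and TTCACGC, a PAX6 core, were in none of the 27 and 16 windows of the members. In all peaks they were in 2.57%, 3.82% and 0.827% of windows in the library labelled 1 and in 1.48%, 3.62% and 0.831% in the library labelled 2. CAGCTGG, an E box form, was in 4 of 27 windows (14.8%, against 9.37% of all) and in 3 of 16 (18.8%, against 8.11%), at Ins2, Pdx1 and Mafa in both. CAGATGG, another E box form that NEUROD1 binds, was in 2 windows of the library labelled 1 (7.41%, against 5.64%), at Ins1 and in the Neurod1 promoter, and in 0 of the library labelled 2 (against 5.21%). Neither of these 2 matches touched a footprint.

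Some matches overlapped footprints, in the sequences shown and at Mafa, whose sequence is not shown. AGGGGGC at the Sst distal site began at base 60 of the printed sequence and overlapped a footprint in each library. GTTGCCA, part of the site of RFX factors, was in 1 of 27 and 1 of 16 windows (3.70% and 6.25%, against 3.34% and 2.92% of all), at Mafa. This Mafa match overlapped a footprint in each library. AGGGGGC was in 3 and 4 windows (11.1% and 25.0%, against 8.93% and 13.3%), at Neurod1 and Sst in both libraries. The Mafa promoter peak, 300 bp wide, also held AGGGGGC, overlapping a footprint in each library. That match lay outside the 200 bp window and is not in these counts. The GC box GGGCGGG in the Nkx6-1 promoter overlapped a footprint of the library labelled 1. It was in 3 and 1 windows (11.1% and 6.25%, against 12.2% and 17.2%).

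The remaining 4 sequences were each in at most 2 windows of the members. TGTTTAC, bound by FOXA factors, was in 1 and 0 windows (3.70% and 0%, against 3.34% and 2.08%), beside the Sst distal site. This match, at 23898949 to 23898955, lay outside the peak of either library, which began at 23898961. The window of the library labelled 2 had another centre and did not reach it, so the 2 counts show no difference between the libraries. TGACGT, part of the cAMP response element, was in 2 and 1 (7.41% and 6.25%, against 3.71% and 4.32%), at the coding exon of Neurod1 in both and at the Isl1 promoter in the library labelled 1. TGTGGTT of RUNX factors was in 1 and 1 (3.70% and 6.25%, against 3.76% and 5.97%), at Pdx1 in the library labelled 1 and Mafa in the library labelled 2. CTTTGAA of TCF1 and LEF1 was in 1 and 1 (3.70% and 6.25%, against 3.50% and 3.49%), at Neurod1. A match is a description of the letters and not a site of binding.

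The wider islet programme was read from 4 lists of 47 further genes, in the shorter peak lists. The gene lists were chosen with earlier results of these data known, so their shares are descriptions. Of all protein-coding genes, 63.1% and 60.1% were open in the libraries labelled 1 and 2, and 6.41% in the library labelled 1 only. Of 16 other islet transcription factors, 10 (62.5%) were open in the library labelled 1 and 6 (37.5%) in the library labelled 2. In the library labelled 1 only, 5 (31.2%) were open. Among those were Nkx2-2 with 2.39, Mnx1 with 1.03 and St18 with 0.807. Neurog3, which starts endocrine differentiation in the embryo, was closed in both. Of 12 genes of glucose sensing and secretion coupling, 6 and 3 were open. Glp1r, the receptor of an incretin hormone, and Cacna1d, a calcium channel, were open in the library labelled 1 only, with 2.77 and 1.63. The longer list of the library labelled 2 added promoter peaks at Glp1r (0.424), Cacna1d (0.640) and Mnx1 (0.331). It had none at Nkx2-2 or St18. Slc2a2, the glucose transporter, had no promoter peak in either list of either library.

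Of 13 genes of secretory granules and prohormone processing, 10 (76.9%) and 9 (69.2%) were open. Pcsk1, a prohormone convertase, was the 1 (7.69%) open in the library labelled 1 only, with 0.956. Slc30a8, the zinc transporter of insulin granules, was closed in both. Of 6 further hormone and peptide genes, 2 (33.3%) and 1 (16.7%) were open. Ghrl, which encodes ghrelin, was the 1 (16.7%) open in the library labelled 1 only, with 1.14. Iapp, the amyloid peptide secreted with insulin, and Ppy, pancreatic polypeptide, were closed in both. Iapp, Ppy, Slc30a8, Slc2a2 and Neurog3 were named after their values were seen. In all, 28 and 19 of the 47 were open, against 63.1% and 60.1% of all genes. The hormone and peptide list had the lowest share open among the 4 lists in both libraries, at 33.3% and 16.7%. In the library labelled 2 this was 1 of 6, next to 3 of 12 (25.0%) for glucose sensing and secretion coupling, so the order rests on few genes.

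**Figure D5:**
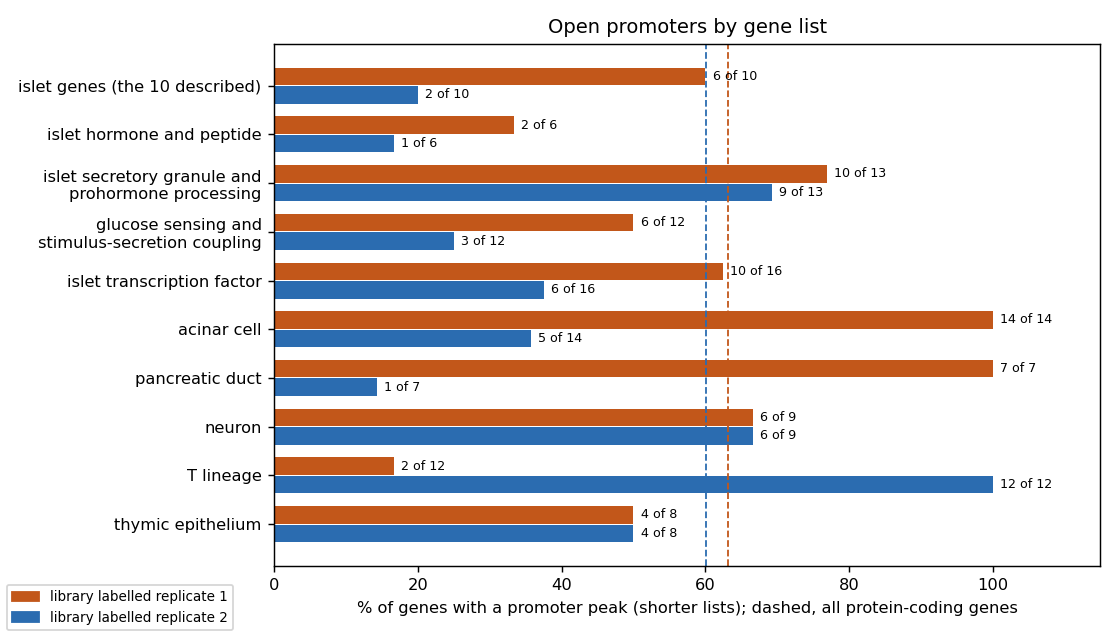
Share of genes with a promoter peak in the shorter lists, for the islet genes, the 4 further islet lists and the 5 marker lists, in the libraries labelled replicate 1 (orange, upper bars) and replicate 2 (blue, lower bars), with dashed lines for all protein-coding genes (63.1% and 60.1%). Acinar and duct markers are all open in replicate 1, T lineage markers all in replicate 2, and the islet genes stand at 6 and 2 of 10.

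The genes most like Pdx1 or Nkx6-1 in having an open promoter in the library labelled 1 only were ranked by how many more distal peaks they had there, over 1399 genes and 2 libraries. The top 5 were Pnlip (46 and 0 distal peaks), Pnliprp2 (46 and 0), Pnliprp1 (32 and 0), Cela3a (27 and 0) and Cela3b (28 and 1), which encode pancreatic lipases and elastases. The domains of Pnliprp1 and Pnliprp2 overlap, as do those of Cela3a and Cela3b, so their counts share peaks. The top 5 are the extremes of this ranking. Pdx1, with 4 and 2 distal peaks, and Nkx6-1, with 0 and 0, stood far below them. The promoter signal of these 5 in the library labelled 1 ran from 2.10 at Cela3a to 7.90 at Pnliprp2, a range that holds Pdx1 with 4.01 and Nkx6-1 with 5.20 and lies above Ins1 with 0.290.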

How the data were processed

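DNase-seq was measured in 2 libraries of 1 group. Per the file notes deposited by the authors, each file comes from 1 library's own filtered reads on mm10. Aligner, callers and thresholds are stated in no source used here. The deposited peak lists give a signal per peak. Its values were whole multiples of 1 step (0.00784 and 0.00771, within 0.05 steps in 100.0% of distinct values). The deposited FDR tables give a p-value-like rate per interval. The deposited footprint lists give a score, which was the same in every row, so only the intervals were used.

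The members and gene lists were chosen with earlier results of these data known. Genes, transcript starts and promoters came from GENCODE vM21 (GRCm38, the mm10 assembly), with 1 gene per symbol. Promoters reach 1 kb from a transcript start, domains 20 kb beyond the gene, and an overlap is at least 1 bp. The shorter list of each library was the main one. Named were the 10 members and some of the markers and list genes closed in both. Up to 4 genes per list with a promoter peak in 1 library only and the highest signals were named too. The last were 5 genes of like promoter state with the largest difference in distal peaks. Some list genes and 1 sequence are not reported here. Counting was tested on simulated intervals. Software was Python 3.11.15, NumPy 2.4.6, statsmodels 0.14.6, pysam 0.24.0, matplotlib 3.10.9, bedtools 2.31.1 and samtools 1.23.1. Depth is unknown, so Wilson intervals (95%) cover counting only. Alternatives were other promoter windows, flanks, peak lists, overlaps and single libraries. RefSeq promoters were matched by symbol for 8 of 10 members. Consensus sequences of 8 or more letters were not searched.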

Additional observations from a re-analysis of the deposited data

How the results depend on the processing

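Unknown depth and 1 library per label limit these values, most of all weak signals near the bottom of a list such as 0.290 at Ins1. Of 71 recomputed values, 43 stayed within the limits set (1.5 times for counts), 27 moved and 1 turned. The cause was not tested in any. No paired analysis was possible because there is 1 group. The count of members open in replicate 1 was 4 to 7 under the alternatives and never below that in replicate 2.

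Members open in replicate 2 (2 as reported) were 1 with the gene 5' end only, 5 with the longer peak lists and 1 with the stronger 50% of peaks. Members open in both libraries (1) were 3 with 2500 bp windows and 4 with the longer lists. With 1 of the 2 libraries left out, the value is the count of the other alone, 2 or 6, and is no separate check. Companion genes (28, 19 and 18 open in replicate 1, replicate 2 and both) were 13, 12 and 8 with the stronger 50% of peaks. With 1 library left out, the single-library counts of 19 and 28 came back. Distal peaks (14 in replicate 1 and 13 in replicate 2) were 8 and 5 with 5 kb flanks, 61 and 50 with 100 kb flanks and 7 and 4 with the stronger 50%, and 28 in replicate 1 with the longer lists. Their ratio (1.08) was 1.87 with the longer lists, 1.75 with the stronger 50%, and turned to 0.917 when distal meant beyond 2500 bp. The share of replicate 2 peaks with a partner (75.0%) was 100% with the stronger 50%. Footprints (118 in replicate 1 and 69 in replicate 2) were 307 and 283 with 100 kb flanks and 74 and 43 whole within a peak, and 40 in replicate 2 with 5 kb flanks. Their ratio (1.71) was 1.08 with 100 kb flanks. Leaving out 1 library likewise returned the counts of the other, 13 or 14 distal peaks and 69 or 118 footprints. These values are among the 71 recomputed.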

Other observations

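Distal peaks of further islet genes were counted in the same way, for genes chosen after their values were seen. Nkx2-2, a factor that specifies beta cells, had 14 distal peaks in the library labelled 1 and 4 in the library labelled 2. Insm1, an endocrine zinc finger factor, had 8 and 1, St18 9 and 1, Irx2 4 and 0, and Glis3, a factor that acts on insulin genes, 15 and 4. Glp1r had 12 and 4. Of the 16 other islet transcription factors 10 had more distal peaks in the library labelled 1, against 41.2% of all protein-coding genes, and 3 had fewer, against 18.2%.

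Rfx3, Syt7 and Aire were likewise chosen after their values were seen. Rfx3, of the RFX factors, had promoter signals of 3.61 in the library labelled 1 and 12.6 in the library labelled 2. Syt7, which encodes a calcium sensor of secretion, went the other way with 10.1 and 1.93. Aire, the regulator of tissue genes in medullary thymic epithelium, had an open promoter in both, with 1.17 and 5.33, while Ins2 had none in either.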
